A study of Mus musculus with 3 samples.

Results

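Axon guidance genes of the ephrin, semaphorin, Slit and netrin families were compared by RNA-seq across the 3 lines of HI-Panc, a mouse pancreatic tumour progression model. The lines are labelled localized, invasive and metastatic, and each gave 1 library. Members were taken by gene symbol, as every ephrin, Eph receptor, semaphorin of classes 3 to 7, plexin, Slit, Robo, netrin and Unc5 gene of the deposited table, and numbered 66 of 22737 genes (35 ligands and 31 receptors). All 3 lines came from tumours of transgenic mice whose genotype label includes p16-/-, and their medium was DMEM plus 10% fetal bovine serum. The treatment text, the same for each library, gives 100 ng/ml cobalt chloride for 24 h for hypoxic models, and leaves unsaid if the cells sequenced here received it. Library preparation started from 1 ug of total RNA. As tissue, the labels give liver for the metastatic line, but pancreatic tissue for the invasive line and body wall for the localized line. The labels of that last pair do not follow the stage names, and if they were exchanged the directions between these lines would reverse. The sources used here give neither the age of the mice nor the number of clones in a line.

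These families are best known for steering growing axons and vessels. Ephrins are membrane-bound ligands, GPI-anchored in the A class and transmembrane in the B class, and their Eph receptors are receptor tyrosine kinases. Semaphorins signal through plexins, the secreted class 3 mostly with neuropilins as co-receptors. Slits are secreted ligands of Robo receptors, and netrins bind Dcc, neogenin and the Unc5 receptors. In human pancreatic cancer, axon guidance genes, SLIT and ROBO genes among them, are known as a recurrently altered group.

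Values are FPKM, fragments scaled to transcript length and library size, so levels of different genes can be set side by side. Differences are in log2(FPKM + 1), and a gene is called higher or lower where that difference is at least 1, a 2-fold difference on this scale. A gene is counted if its mean over the 3 libraries is at least 1 FPKM. With n = 1 per stage there is no replicate error and no test, so each count is a description of 3 libraries. From the steps between low values the depth was estimated at 45600000, 41100000 and 43300000 fragments for the localized, invasive and metastatic libraries. The localized library stood apart in its marker genes. The 8 epithelial and ductal markers summed to 1212 FPKM in the localized library, 6302 FPKM in the invasive one and 6798 FPKM in the metastatic one, and the 8 fibroblast and mesenchymal markers summed to 579, 95.1 and 14.4 FPKM in the same order. Of the epithelial list 5, 7 and 7 genes reached 1 FPKM in stage order, and of the fibroblast list 8, 5 and 4, with Lum listed at 0 in the metastatic library. The fibroblast proteoglycan gene Dcn had 54.4 FPKM in the localized, 0.0710 FPKM in the invasive and 0.0142 FPKM in the metastatic library. Endothelial markers summed to at most 0.634 FPKM and hepatocyte markers to at most 0.0586 FPKM in any library, the one with the liver label included, and Emcn, Cd3e, Elavl4, Serpina1a and Cpa1, markers of endothelial, T, neural, liver and acinar cells, were listed at 0 in all 3. Haematopoietic markers summed to 4.85, 11.0 and 10.3 FPKM and acinar markers to 7.58, 1.21 and 0.465 FPKM in stage order. Neural and Schwann markers summed to 50.1, 12.2 and 3.47 FPKM in stage order, of which the neuronal tubulin Tubb3 gave 46.3, 11.2 and 2.67 FPKM. The part of these markers in the guidance gene differences was not tested. In bulk RNA, fewer cells of a type and less RNA per cell cannot be told apart.

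Of the 66 guidance genes, 40 were counted and 26 fell below the mean of 1 FPKM. Of these 26, 22 stayed under 1 FPKM in every library and 3 (Epha5, Epha6 and Robo4) were listed at 0 in all of them. The other 4 (Efna2, Epha7, Sema6a and Sema6c) reached 1 FPKM in a library. The localized library differed most from the others. In the invasive against the localized library, 15 of 40 guidance genes were at least 2-fold higher, beside 8.78% of all 11404 genes counted, and 7 were at least 2-fold lower, beside 6.07%. In the metastatic against the localized library 13 were higher (9.08% of all genes) and 10 lower (7.29%). These comparisons share the localized library. Between the metastatic and invasive libraries 0 members were higher (1.33% of all genes) and 3 were lower (1.67%). Any pair of libraries differed 2-fold for 27 of the 40, beside 19.0% of all genes. The median difference was 0.47 for guidance genes and 0.00 for all genes in the invasive minus the localized library, and 0.33 and 0.00 in the metastatic minus the localized library. Over all 66 guidance genes, with no filter, it was 0.00 in both comparisons. The median size of the difference, regardless of sign, was 1.13 for guidance genes and 0.31 for all genes in the invasive against the localized library, and 0.33 and 0.17 in the metastatic against the invasive library. The filter shapes these counts, because 6 of the 15 genes higher in the invasive library were under 1 FPKM in the localized library and 2 of the 7 lower ones were under 1 FPKM in the invasive library. With a pseudocount of 5 FPKM, which weighs low genes less, 5 genes were higher and 2 lower in the invasive than in the localized library, beside 5.04% and 3.15% of all genes, and 5 were higher and 4 lower in the metastatic than in the localized library, beside 5.53% and 4.07%. The genes still called against the localized library were Efna4, Sema3e, Sema4b and Sema3a in both comparisons, Efna3, Plxnd1 and Ntn1 in the invasive one, and Efna1, Sema4f, Sema3f, Sema5a and Sema6d in the metastatic one. Between the metastatic and invasive libraries, Plxna4 (-0.47) was no longer called. A pseudocount of 0.1 FPKM, which weighs low genes more, gave 2 higher (Robo2 and Slit3) and 6 lower in the metastatic than in the invasive library. The shares of all genes were 1.99% and 3.27%. With the 0.1 FPKM offset of the deposited values left in, 10 were higher and 9 lower in the metastatic than in the localized library (8.90% and 7.26% of all genes), as Epha4 (0.97), Ntn4 (0.99), Sema4a (0.99) and Slit2 (-0.99) fell just short of the bound. The 27 genes comprised 17 at 1 FPKM or more in all 3 libraries and 10 that were under 1 FPKM in at least 1 of them.

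**Figure D1:**
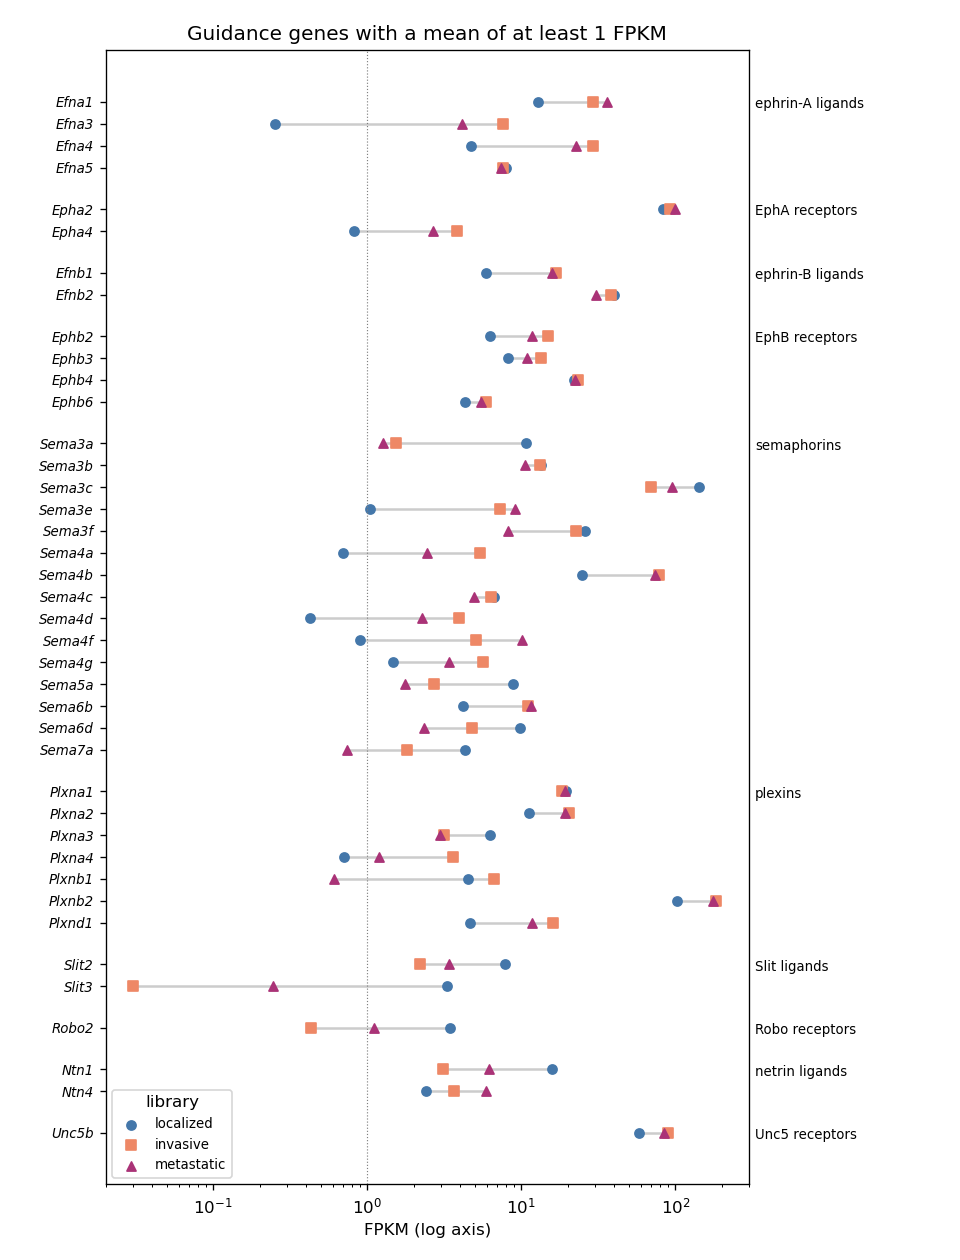
FPKM (log axis) of the 40 guidance genes with a mean of at least 1 FPKM, 1 point per library, grouped by class; the grey line joins the lowest and highest library and the dotted line marks 1 FPKM. The localized library is the lowest for 23 genes and the highest for 16.

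Of the 4 counted ephrin-A ligands, 3 were higher in the invasive library, and the same 3 in the metastatic library, each against the localized library (8.78% and 9.08% of all genes). Efna1, a ligand known for binding Epha2, had 12.9 FPKM in the localized, 29.0 FPKM in the invasive and 36.1 FPKM in the metastatic library. Efna4 had 4.74, 29.4 and 22.5 FPKM in that order, and Efna3 had 0.251, 7.63 and 4.11 FPKM. The localized library was thus the low one for all 3 genes. Their differences were 1.11, 2.40 and 2.79 for the invasive minus the localized library and 1.42, 2.03 and 2.03 for the metastatic minus the localized library. As a ratio of FPKM, Efna3 in the invasive library had 30.4 times its localized level, with a 95% interval of 20.4 to 47.3 that covers counting error only and rests on about 25 fragments in the localized library. Exons of Efna3 and Efna4 overlap those of Gm15998 and 4731419I09Rik, and reads from the shared stretches cannot be told apart. Efna5 was near constant at 7.92, 7.66 and 7.40 FPKM across the stages, and Efna2 (1.64, 0.410 and 0.400 FPKM) missed the filter. Summed over the 5 genes, ephrin-A ligands had 27.4 FPKM in the localized, 74.1 FPKM in the invasive and 70.5 FPKM in the metastatic library.

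The 3 higher ephrin-A genes lie next to one another on the minus strand of chromosome 3 (GRCm38, GENCODE M21). Efna1 spans 89271733 to 89281142, Efna3 89313899 to 89322965 and Efna4 89333390 to 89338028, with gaps of 32757 and 10425 bases. Their neighbours were examined after the values had been seen. Directly on the Efna1 side, Slc50a1 had 35.9, 43.3 and 40.9 FPKM and Dpm3 57.7, 46.4 and 50.4 FPKM in the localized, invasive and metastatic libraries, and on the Efna4 side the metalloprotease gene Adam15 had 28.0, 36.7 and 29.4 FPKM. These flanking genes were within 2-fold in every pair. Farther along, the mucin gene Muc1 had 0.297, 111 and 112 FPKM, Trim46 5.24, 23.6 and 18.3 FPKM and the thrombospondin gene Thbs3 6.42, 30.4 and 16.6 FPKM. Krtcap2 (189, 268 and 263 FPKM) and, beyond Adam15, Zbtb7b (15.4, 27.0 and 27.5 FPKM) were within 2-fold as well. Of these 5 genes within 2-fold, all but Dpm3 also had their lowest value in the localized library.

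**Figure D2:**
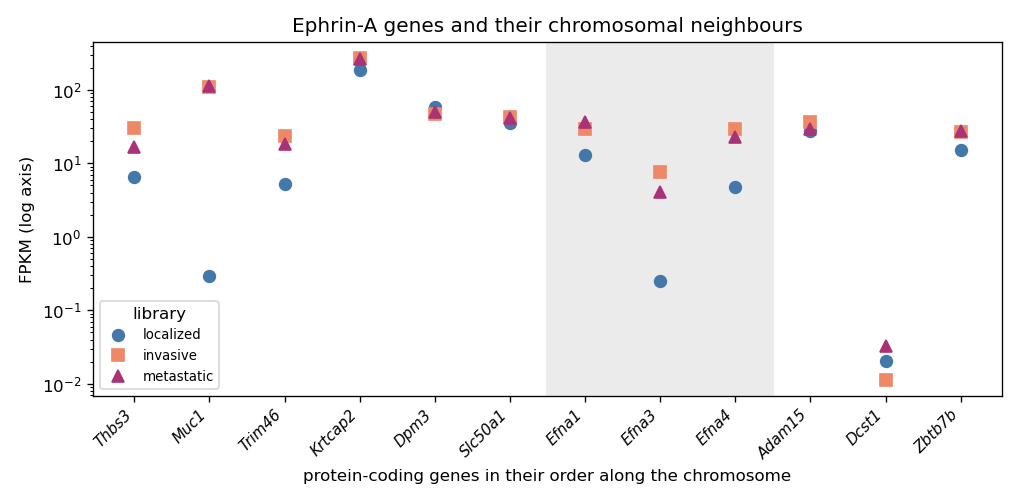
FPKM (log axis) of protein-coding genes of the table in their order along chromosome 3 around Efna1, Efna3 and Efna4 (shaded), 1 point per library. The invasive and metastatic points lie more than 2-fold above the localized point for the 3 ephrin genes and for Thbs3, Muc1 and Trim46, and within 2-fold of it for Krtcap2, Dpm3, Slc50a1, Adam15 and Zbtb7b.

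The stretches before Efna3 and Efna4 are shown because these adjacent genes had the largest positive differences of any guidance gene in the invasive against the localized library. They come from RefSeq (GRCm38.p6), on the minus strand, written 5′ to 3′ and ending where the GENCODE gene begins: 224 bases at chr3:89322966-89323189 for Efna3 and 250 bases at chr3:89338029-89338278 for Efna4. Capitals mark the GC box GGGCGG, a known Sp1 motif, on either strand.
Efna3: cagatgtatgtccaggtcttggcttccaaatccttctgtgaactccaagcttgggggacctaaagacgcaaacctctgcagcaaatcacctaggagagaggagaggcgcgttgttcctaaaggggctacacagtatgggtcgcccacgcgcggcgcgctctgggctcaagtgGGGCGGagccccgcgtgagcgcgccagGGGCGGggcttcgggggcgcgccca
Efna4: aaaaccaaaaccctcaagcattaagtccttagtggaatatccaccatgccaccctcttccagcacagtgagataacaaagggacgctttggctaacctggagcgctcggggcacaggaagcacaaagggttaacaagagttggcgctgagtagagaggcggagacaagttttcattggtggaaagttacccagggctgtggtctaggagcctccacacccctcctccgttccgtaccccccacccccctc
The Efna3 stretch holds 2 GC boxes at 63.4% GC and the Efna4 stretch 0 at 54.4% GC, so the start regions of this pair are unlike in both. In the 250 bases before the start of every gene of the RefSeq table, the GC box was found for 32.9% of 27025 genes, and for 41 of the 57 guidance genes the table lists. Promoter GC content had a median of 52.0% over all genes and 64.8% over the guidance genes. The part of GC content in the box counts was not tested.

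Most of the EphA receptor signal came from Epha2, a receptor commonly found on epithelial tumour cells, which had 83.4 FPKM in the localized, 92.1 FPKM in the invasive and 99.4 FPKM in the metastatic library. It made up 97.3%, 96.0% and 97.3% of the summed FPKM of the 9 EphA genes in stage order. The receptor therefore stayed within 2-fold while 3 of its class of ligands were higher. Epha4, which also binds ephrin-B ligands, was higher in the invasive (3.81 FPKM) and the metastatic library (2.66 FPKM) than in the localized library (0.817 FPKM), with differences of 1.41 and 1.01. Epha7 missed the filter with 1.12 FPKM in the localized, 0.0148 FPKM in the invasive and 0.0917 FPKM in the metastatic library. Efnb2, a ligand known from arterial endothelium, had 40.0, 38.5 and 30.4 FPKM in stage order, and its receptor Ephb4 had 22.0, 23.5 and 22.3 FPKM. Efnb1 was higher in the invasive (16.7 FPKM) and the metastatic library (15.8 FPKM) than in the localized library (5.89 FPKM). Efnb3 missed the filter with 0.54, 0.239 and 0.273 FPKM in stage order. Ephb2, which marks crypt cells in the intestine, had 15.0 FPKM in the invasive against 6.24 FPKM in the localized library, a difference of 1.14, and 11.7 FPKM in the metastatic library, a difference of 0.81 from the localized library. Ephb3 (8.17, 13.5 and 10.9 FPKM) and the kinase-inactive Ephb6 (4.33, 5.86 and 5.51 FPKM) were within 2-fold, and Ephb1 missed the filter with at most 0.578 FPKM.

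Semaphorins held 20 members, of which 15 were counted, and their summed level was 256 FPKM in the localized library and 241 FPKM in each of the others. The makeup of that sum differed. The 6 class 4 genes, transmembrane ligands mostly of plexin-B receptors, summed to 34.7 FPKM in the localized, 104 FPKM in the invasive and 96.5 FPKM in the metastatic library, and the 7 secreted class 3 genes to 194, 115 and 125 FPKM. The most abundant semaphorin was Sema3c in the localized (143 FPKM, 55.7% of the class) and the metastatic library (95.2 FPKM, 39.6%), and Sema4b in the invasive library (77.9 FPKM, 32.3%). Against the localized library, 5 of the 6 class 4 genes were higher in the invasive library, the metastatic library had 4 higher, and 0 were lower in either. Of all genes, 8.78% and 9.08% were higher and 6.07% and 7.29% lower in these comparisons.

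Within class 4, Sema4b had 24.6 FPKM in the localized, 77.9 FPKM in the invasive and 73.4 FPKM in the metastatic library. Sema4a, a ligand studied in immune cells, had 0.694, 5.42 and 2.45 FPKM, and Sema4d, the ligand of Plxnb1, had 0.427, 3.94 and 2.27 FPKM in that order. Each was highest in the invasive library, with differences of 1.63, 1.92 and 1.79 for the invasive minus the localized library and 1.54, 1.03 and 1.20 for the metastatic minus the localized library. Sema4g had 5.66 FPKM in the invasive against 1.47 FPKM in the localized library, a difference of 1.43, and 3.40 FPKM in the metastatic library. On log2(FPKM + 1), Sema4f was the only counted guidance gene that stepped up by 1.5-fold at both steps (1.47% of all genes did). It had 0.894, 5.06 and 10.1 FPKM in the localized, invasive and metastatic libraries. Its metastatic FPKM was 11.3 times the localized one (95% counting interval 9.63 to 13.4). As plain FPKM ratios, Ntn4 also passed 1.5-fold upward at both steps (1.53 and 1.60). Sema4c, with 6.62, 6.35 and 4.90 FPKM, was the class 4 gene within 2-fold throughout.

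Class 3 went in several directions. Sema3a, the classical repellent that acts through Nrp1, had 10.8 FPKM in the localized, 1.53 FPKM in the invasive and 1.27 FPKM in the metastatic library, with differences of -2.22 and -2.38 from the localized library. Sema3c, known for binding both neuropilins, had 143, 69.9 and 95.2 FPKM in stage order, and passed 2-fold only in the invasive minus the localized library (-1.02). Sema3e, which binds Plxnd1 directly without a neuropilin, was the opposite of Sema3a, with 1.04, 7.26 and 9.17 FPKM and differences of 2.02 and 2.32. On chromosome 5 Sema3a and Sema3e are neighbours among the members, 422711 bases apart, and the localized library was high for the first and low for the second. Sema3f, a ligand of Nrp2, separated the metastatic library instead, with 25.8 FPKM in the localized, 22.7 FPKM in the invasive and 8.23 FPKM in the metastatic library, a difference of -1.36 for the metastatic minus the invasive library. Its neighbour Sema3b, 72271 bases away on chromosome 9, had 13.4, 13.3 and 10.6 FPKM.

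Among the other semaphorins, Sema5a, a transmembrane ligand with thrombospondin repeats, had 8.87 FPKM in the localized, 2.70 FPKM in the invasive and 1.76 FPKM in the metastatic library. Sema6d, a ligand of Plxna1, had 9.79, 4.78 and 2.34 FPKM, and the GPI-anchored Sema7a had 4.34, 1.82 and 0.735 FPKM in that order. On log2(FPKM + 1), Sema6d and Sema7a were the 2 counted guidance genes that stepped down by 1.5-fold at both steps (1.54% of all genes did). Their differences were -1.69 and -1.62 for the metastatic minus the localized library. As plain FPKM ratios, Sema5a also passed 1.5-fold downward at both steps (0.304 and 0.65). Sema6b went the other way, with 11.1 FPKM in the invasive and 11.5 FPKM in the metastatic library against 4.16 FPKM in the localized library. Sema6a missed the filter, but had 2.22 FPKM in the metastatic library against 0.310 FPKM in the invasive library and 0.101 FPKM in the localized one, or about 643, 85 and 31 fragments. The metastatic level was 7.17 times the invasive one (95% counting interval 5.72 to 9.11).

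**Figure D3:**
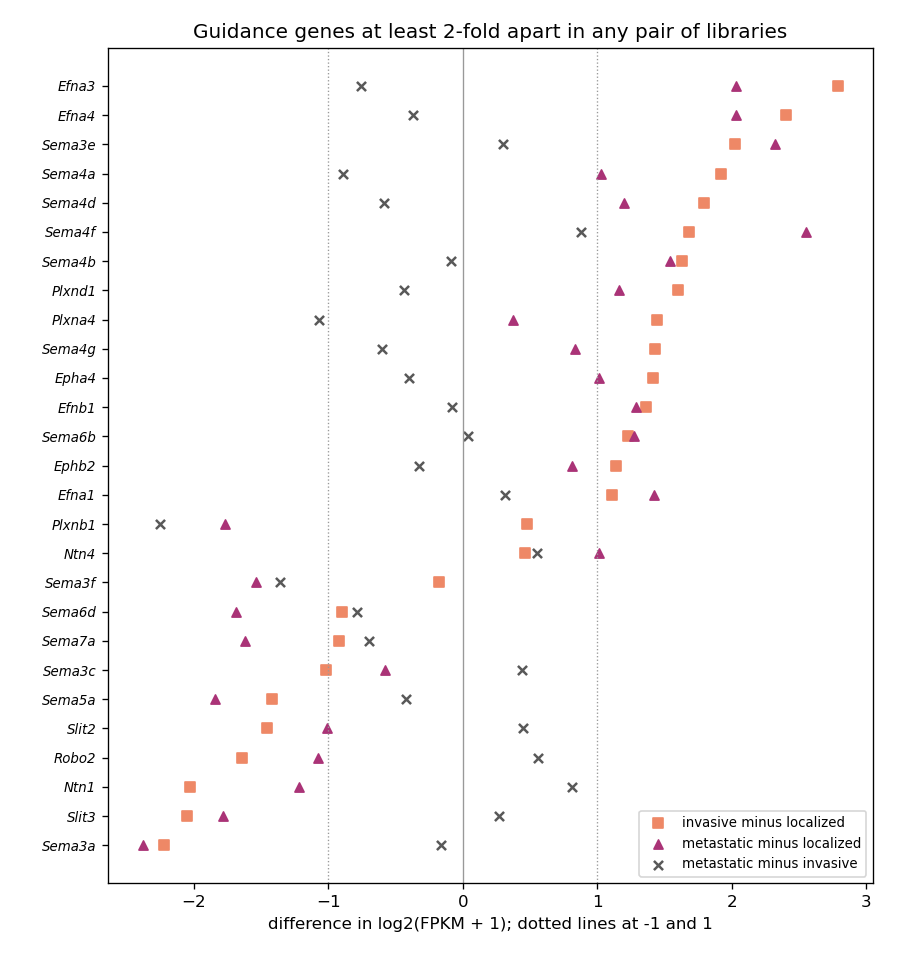
Difference in log2(FPKM + 1) of the 27 guidance genes at least 2-fold apart in any pair of libraries, with 1 marker per pair of libraries and dotted lines at the 2-fold bound. The invasive minus localized and metastatic minus localized markers, which share the localized library, lie on the same side of 0 except for Plxnb1, and the metastatic minus invasive crosses pass -1 for Plxnb1, Sema3f and Plxna4.

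Plexins were dominated by Plxnb2, a class 4 semaphorin receptor widely expressed in epithelia, with 102, 185 and 175 FPKM in the localized, invasive and metastatic libraries. It was the most abundant guidance gene of the invasive and metastatic libraries and stayed within 2-fold (0.85 and 0.78 relative to the localized library). Plxnd1, the Sema3e receptor, had 4.66, 16.1 and 11.7 FPKM in the localized, invasive and metastatic libraries, with differences of 1.60 and 1.16 from the localized library. Sema3e and its receptor were thus both low in the localized library. Plxnb1, the Sema4d receptor, had the largest difference between the metastatic and invasive libraries of any counted guidance gene. Its level was 0.609 FPKM in the metastatic library against 6.67 FPKM in the invasive library (difference -2.25, FPKM ratio 0.0912, 95% counting interval 0.0791 to 0.105) and 4.50 FPKM in the localized library. Plxna4 had 1.20 FPKM in the metastatic against 3.62 FPKM in the invasive library, and 0.706 FPKM in the localized library. Plxna1 (19.4, 18.4 and 19.2 FPKM in stage order), Plxna2 (11.3, 20.4 and 19.1 FPKM) and Plxna3 (6.25, 3.15 and 2.96 FPKM) were within 2-fold on log2(FPKM + 1). The Plxna3 difference for the metastatic minus the localized library was -0.87, though its plain FPKM ratio was 0.473. Plxnc1, the Sema7a receptor, did not exceed 0.0201 FPKM in any library. Among the counted guidance genes, exons of Efna3, Efna4, Plxna1, Plxna4 and Plxnb1 overlap exons of other annotated genes (Gm15998, 4731419I09Rik, Gm26811, Plxna4os3 and Gm7628). The sources used here do not state strandedness, so reads from the shared stretches of these pairs cannot be told apart.

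The 3 counted genes of the Slit and Robo families, Slit2, Slit3 and Robo2, were lower in the invasive and metastatic libraries than in the localized library. Of all genes, 6.07% and 7.29% were lower in these comparisons. With a pseudocount of 5 FPKM, none of the 3 was called in either comparison. Slit2 had 7.82 FPKM in the localized, 2.19 FPKM in the invasive and 3.38 FPKM in the metastatic library, and Slit3 had 3.27, 0.0302 and 0.243 FPKM. The differences from the localized library were -1.46 and -1.01 for Slit2 and -2.05 and -1.78 for Slit3. For Slit3 the low levels stand for about 6 invasive and 53 metastatic fragments, and its invasive over localized ratio was 0.00924 (95% counting interval 0.00324 to 0.0194). Slit1 did not exceed 0.0591 FPKM. Robo2, the only Robo gene counted, had 3.47, 0.428 and 1.11 FPKM in stage order. Slit3 and Robo2 passed the filter only through their level in the localized library, so the filter itself favours lower calls for them. Robo1, below the filter, had 0.417 FPKM in the localized, 0.0230 FPKM in the invasive and 0.0373 FPKM in the metastatic library. Robo3, also below it, had 0.12, 0.0213 and 0.121 FPKM in stage order. Over all 3 Slit genes the sum was 11.1, 2.28 and 3.68 FPKM and over all 4 Robo genes 4.0, 0.472 and 1.27 FPKM, so in both sums the invasive library was the lowest and the metastatic one stood between.

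The stretches before Slit2 and Sema5a are shown as the counterpart, since both ligands were lower in the invasive and metastatic libraries than in the localized one. They lie on the plus strand, 233 bases at chr5:47982905-47983137 and 247 bases at chr15:32244563-32244809 (RefSeq, GRCm38.p6, trimmed at the GENCODE gene start), with the same motif in capitals.
Slit2: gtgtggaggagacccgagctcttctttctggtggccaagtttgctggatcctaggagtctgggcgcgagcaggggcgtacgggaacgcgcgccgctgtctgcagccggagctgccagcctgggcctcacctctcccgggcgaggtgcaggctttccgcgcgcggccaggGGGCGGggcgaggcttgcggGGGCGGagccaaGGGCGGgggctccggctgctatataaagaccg
Sema5a: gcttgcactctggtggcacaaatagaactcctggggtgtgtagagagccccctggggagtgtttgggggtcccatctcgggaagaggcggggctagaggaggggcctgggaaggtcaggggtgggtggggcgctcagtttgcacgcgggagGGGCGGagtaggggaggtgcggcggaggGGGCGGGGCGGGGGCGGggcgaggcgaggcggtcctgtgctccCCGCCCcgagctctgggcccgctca
Slit2 holds 3 GC boxes and Sema5a 5, some of them overlapping, at 70.4% and 71.7% GC, so the box occurred before genes of both directions. The hypoxia response core ACGTG, the AP-1 motif TGANTCA and the E-box CAGGTG were searched on both strands as well and were found in none of the 4 stretches. In the 250-base windows of all genes they occurred in 16.6%, 6.87% and 17.1%, and in those of the guidance genes in 10, 2 and 8 of 57. A match or its absence in such a window says nothing about binding.

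Netrins were split between ligands. Ntn1, the founding netrin, had 15.8 FPKM in the localized, 3.10 FPKM in the invasive and 6.20 FPKM in the metastatic library, with differences of -2.03 and -1.22 from the localized library. Ntn4, a netrin that binds laminin, had 2.40, 3.67 and 5.86 FPKM and passed 2-fold only in the metastatic minus the localized library (1.01). Ntn3 and Ntn5 stayed below 1 FPKM in every library. The Unc5 receptor signal came from Unc5b, a dependence receptor also known from vessels, which had 58.3, 89.4 and 84.3 FPKM in stage order. It held at least 99.5% of the Unc5 sum in each library. Unc5c (0.0647, 0.167 and 0.282 FPKM) and Unc5a (0.104, 0.172 and 0.182 FPKM) missed the filter. Dcc did not exceed 0.00431 FPKM, and neogenin, Neo1, had 24.9 FPKM in the invasive and 25.0 FPKM in the metastatic library against 52.0 FPKM in the localized library. Dcc and Neo1 were named after their values were seen.

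**Figure D4:**
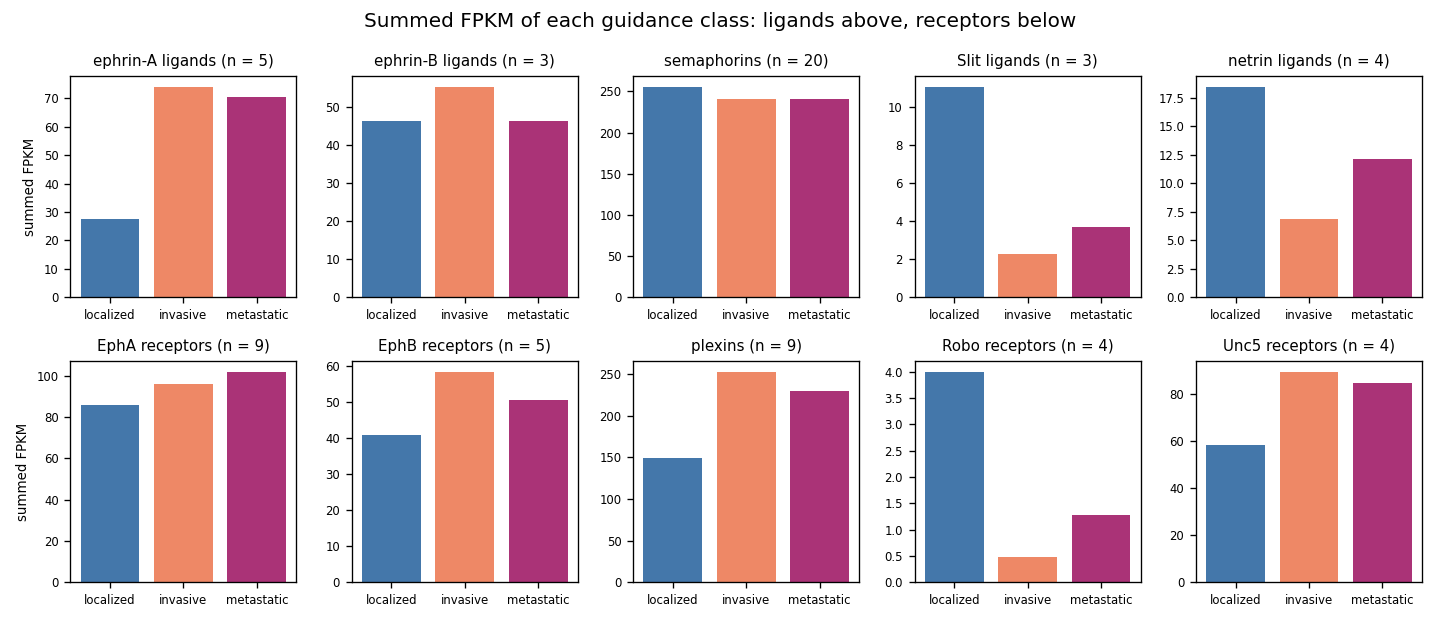
Summed FPKM of each guidance class in the 3 libraries (bars from 0; 1 library per bar; n is the number of genes in the class), ligand classes above and receptor classes below. The localized library is the lowest for ephrin-A ligands, EphA and EphB receptors, plexins and Unc5 receptors. It is also lowest for ephrin-B ligands, though nearly equal to the metastatic library (46.4 against 46.5 FPKM). Slit, Robo and netrin genes are highest in the localized library, while semaphorins sum to between 241 and 256 FPKM.

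Partner genes outside these families were followed in 5 lists. Of 7 counted semaphorin co-receptors, 1 was higher and 1 lower in the invasive than in the localized library (median difference 0.05), and 2 were higher and 1 lower in the metastatic than in the localized library. The shares of all genes were 8.78% higher and 6.07% lower in the first comparison and 9.08% and 7.29% in the second. A list of 7 genes is too small to set its counts apart from such shares. The neuropilin Nrp1, the Sema3a co-receptor, had 26.9 FPKM in the localized, 10.9 FPKM in the invasive and 9.38 FPKM in the metastatic library, and Nrp2 had 53.1, 46.1 and 37.8 FPKM. The receptor kinases Mst1r (1.15, 6.17 and 8.07 FPKM) and Erbb2 (12.2, 24.8 and 30.1 FPKM) were the higher ones, the second called only in the metastatic library. The Erbb2 differences from the localized library were 0.97 (invasive) and 1.24 (metastatic). Of 5 counted netrin receptors and related ligands, 4 were lower and 1 higher in the invasive than in the localized library (median difference -1.40), beside 6.07% lower and 8.78% higher of all genes. The counts were the same for the metastatic against the localized library (7.29% lower and 9.08% higher of all genes). The neogenin ligands Rgma (7.41, 1.55 and 1.54 FPKM) and Rgmb (37.6, 13.6 and 9.39 FPKM) and the Unc5 ligand Flrt2 (6.71, 0.228 and 0.462 FPKM) were lower, and its relative Flrt3 (1.28, 3.72 and 5.68 FPKM) was higher.

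Few signal transducers passed 2-fold, and the counts per list were too small to set apart from the shares of all genes. Of 24 counted Eph transducers, 1 was higher and 2 were lower in the invasive than in the localized library, with a median difference of 0.16. Ngef, the exchange factor ephexin that acts downstream of EphA receptors, had 47.9 FPKM in the localized, 6.41 FPKM in the invasive and 4.36 FPKM in the metastatic library, whereas the Rac exchange factor Vav2 had 4.98, 14.2 and 14.1 FPKM. Anks1b had 2.39, 0.394 and 0.254 FPKM and Tiam2, another Rac exchange factor, 13.7, 8.92 and 6.82 FPKM in stage order. The same comparison gave 2 higher and 1 lower of 23 plexin and semaphorin transducers (median 0.10) and 1 higher and 3 lower of 23 Slit, Robo and netrin transducers (median 0.23), beside 8.78% higher, 6.07% lower and a median of 0.00 over all genes. In the metastatic against the localized library the counts were 1 higher and 2 lower for the Eph, 2 and 2 for the plexin and 3 and 3 for the Slit, Robo and netrin transducers, beside 9.08% higher and 7.29% lower of all genes. Between the metastatic and invasive libraries, 2 plexin transducers were lower (Mical1 and the kinase gene Fes, the second with 11.8 FPKM in the localized, 7.81 FPKM in the invasive and 3.16 FPKM in the metastatic library) and no other partner gene of these lists passed 2-fold, beside 1.33% higher and 1.67% lower of all genes. Rnd2, a small GTPase, had 10.3, 48.7 and 38.9 FPKM and Dpysl3, a collapsin response mediator, 53.9, 15.2 and 29.1 FPKM in stage order. The actin regulator Mical1, like Plxnb1, was low in the metastatic library, with 0.821 FPKM there against 4.23 FPKM in the invasive and 4.43 FPKM in the localized library. A link between Mical1 and Plxnb1 was not tested. In the Slit, Robo and netrin list, Ablim3, of the actin-binding LIM family, had the largest difference, with 5.57 FPKM in the localized, 0.810 FPKM in the invasive and 0.357 FPKM in the metastatic library. The actin regulator Enah had 7.34, 1.76 and 1.67 FPKM and the Slit-binding glypican Gpc1 107, 30.7 and 28.5 FPKM, while the syndecan Sdc1 had 98.3, 331 and 324 FPKM.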

How the data were processed

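RNA-seq of 3 mouse cell lines was analysed, grouped by the stage label, with 1 library each. The authors deposited FPKM per gene, per the file headers. Tools given in the submitters' processing notes, without roles, are Cufflinks 2.2.1, STAR 2.5.2a and FastQC 0.11.2, with GRCm38 as the build. The lowest deposited value was 0.1 in each column, so 0.1 was subtracted from every value. Of 22784 entries, 27 with date numbers as names and 20 short or ribosomal RNA genes were left out.

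Differences were taken in log2(FPKM + 1) with Python 3.11.15, numpy 2.4.6, pandas 2.3.3 and scipy 1.17.1, over 11404 genes with a mean of at least 1 FPKM; no p-value was computed. Fragment numbers are approximate. They use the longest GENCODE M21 transcript less 180 bases and the value of 1 fragment in genes with 1 transcript over 2000 bases, where 67.9% to 68.1% of low values lay within 0.0012 FPKM kb of a whole step, against 9.85% to 10.9% for evenly spread values. The 180 bases and the step were chosen to make the first of these shares largest, so the contrast is no independent check of the depth. Intervals of ratios are exact binomial (Clopper-Pearson) intervals for counting error alone. The calling step was tested on simulated data, which gives no error rate for the calls in these 3 libraries. Members, lists and alternatives were chosen with earlier results of these data known. Values are given for every counted member that differed 2-fold in a pair of libraries or 1.5-fold the same way at both steps. The rule adds up to 3 members of highest mean per class (Slit1 and Ntn3 by bounds only). It also adds up to 4 counted genes per partner list with the largest difference. Efna2, Ephb1, Ephb6, Ntn5, Plxna3, Plxnc1, Sema3b, Sema4c, Sema6a, the chromosome 3 neighbours, Dcc and Neo1 are outside this rule and were named after their values were seen. Alternatives covered the pseudocount, the filter, the offset, the scaling and the size of a call. A further allele of the genotype label is not reported here.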

Additional observations from a re-analysis of the deposited data

How the results depend on the processing

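No paired analysis was possible because each stage has 1 library. Counts of guidance genes depended on the pseudocount, the filter and the size of a call, whereas no called gene changed direction under any alternative. With a pseudocount of 5, 5 genes were higher and 2 lower in the invasive than in the localized library (5.04% and 3.15% of all genes), 5 higher and 4 lower in the metastatic than in the localized library (5.53% and 4.07%), and 0 lower at both steps. With a pseudocount of 0.1, 2 were higher (Robo2 and Slit3) and 6 lower in the metastatic than in the invasive library (1.99% and 3.27% of all genes). At that pseudocount 2 were higher (Sema4f and Ntn4) and 3 lower (Sema5a, Sema6d and Sema7a) at both steps. With a mean of at least 5 FPKM, which left 25 guidance genes of 8874 genes, 9 were higher and 2 lower in the invasive than in the localized library (8.28% and 4.24%), 8 higher and 3 lower in the metastatic than in the localized library (8.37% and 5.50%), 1 lower in the metastatic than in the invasive library (1.56%) and 1 lower at both steps. Without a filter, 1 was higher in the metastatic than in the invasive library (0.739%), and the median difference of members from the localized library was 0.00 in either comparison, against 0.47 (invasive) and 0.33 (metastatic) with it. Scaling each library to the same sum gave 1 higher in the metastatic than in the invasive library (1.81%). A 1.5-fold bound gave 2 higher and 9 lower there (3.51% and 5.35%), 19 higher and 10 lower in the invasive than in the localized library (15.1% and 11.9%), and 17 higher and 11 lower in the metastatic than in the localized library (15.9% and 14.1%). A 2-fold bound at each step left 0 higher and 0 lower at both steps. With the 0.1 left in, the log2 ratio of summed Robo levels, metastatic over invasive, was 0.94, against 1.43 with it subtracted. Scaling moved the median of all genes by at most 0.024. The cause of these shifts was not tested. Of the 120 differences of counted members, 30 no longer passed 2-fold with a pseudocount of 5 and 4 with the 0.1 left in (Epha4, Ntn4, Sema4a and Slit2, metastatic against localized), while 9 more passed with a pseudocount of 0.1. Ratios of Slit3 and Efna3 rest on few fragments.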
